A study of Mus musculus with 96 samples.

Results

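The striatum and the cerebral cortex of Msh6-/- mice were compared with each other, animal by animal, to ask whether the 2 tissues keep their regional expression programmes without this mismatch repair protein. The comparison used the 16 libraries labelled Msh6-/- without a Q140 allele, 8 of striatum and 8 of cortex, out of 96 bulk RNA-seq libraries in the series. Each animal number in the library titles occurred once per tissue, so that the 16 libraries came from 8 animals, 4 males and 4 females, aged 6 months and on a C57BL/6 background. The 8 wild-type mice of the same age, background and sex balance, again with both tissues from each mouse, gave the reference. Other mice were labelled as heterozygous knock-ins of Q140, a Huntington's disease allele of the huntingtin gene Htt. Those with and without Msh6 served for a repeat of the genotype comparison. The 8 Msh6+/- mice without Q140 served to choose regional genes, and 8 Msh6+/- mice with Q140 entered only the fit of all 96 libraries. The labels name neither the exons that the Msh6 allele lacks nor any promoter or Cre line behind it. Both tissues were taken whole, so fewer cells of a type and less RNA per cell cannot be told apart in any value below.

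MSH6 is part of a protein complex that recognises base mismatches and short insertion or deletion loops in newly made DNA and recruits further proteins to start their removal. The striatum is built mainly of GABAergic spiny projection neurons, of which one class carries the dopamine receptor Drd1 and the peptide gene Tac1 and the other the dopamine receptor Drd2, the adenosine receptor Adora2a and the peptide gene Penk. The cortex is built mainly of glutamatergic pyramidal neurons, arranged in layers and specified by transcription factors such as Tbr1 and the Neurod family, with GABAergic interneurons among them.

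The labels were first checked against the deleted gene. Msh6 (chr17:87975062-87990892, plus strand, GRCm38) measured 6.79, 7.86 and 10.7 CPM (counts scaled to library size, the unit of levels below; lowest, median and highest of 8 libraries) in Msh6-/- striatum and 7.61, 8.86 and 10 CPM in Msh6-/- cortex. In wild-type mice it measured 14.2, 17.2 and 18.1 CPM in striatum and 18.1, 19.2 and 20.6 CPM in cortex. Every Msh6-/- library lay below every wild-type library of its tissue, and the Msh6-/- libraries still held Msh6 reads. Within Msh6-/- mice the striatal level was lower than the cortical one by 0.15 ± 0.07 on the log2 scale (SE; adjusted p = 0.0450, edgeR's quasi-likelihood test), a call that was lost without a block for the animal (adjusted p = 0.0682) and when any of the animals 14-3, 20-1, 26-2, 29-2 and 32-1 was left out. In wild-type mice this difference of striatum minus cortex was -0.19 ± 0.06, so that the signed change, Msh6-/- minus wild type, was 0.04 ± 0.09, with a 95% confidence interval from -0.14 to 0.22.

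Total counts per library were 17621803 to 21108017 in Msh6-/- striatum, 19092210 to 22886441 in Msh6-/- cortex, 15883992 to 19906655 in wild-type striatum and 16725695 to 21425499 in wild-type cortex. The profile of striatum minus cortex of each Msh6-/- mouse correlated with the mean of the other 7 at Pearson's r of 0.983 to 0.989 across 10920 genes, which share libraries and are not independent. The defining markers matched the tissue labels in all 32 libraries. The summed level of 7 markers of Drd2-type neurons was 2398 to 3006 CPM in Msh6-/- striatum and 92.5 to 111 CPM in Msh6-/- cortex, and that of 18 markers of cortical glutamatergic neurons was 555 to 648 CPM in striatum and 4176 to 4392 CPM in cortex.

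Of 17596 genes tested, 6601 were higher in the striatum of Msh6-/- mice (37.5% of genes tested) and 6564 were higher in the cortex (37.3%), at an adjusted p under 0.05 in edgeR's quasi-likelihood test with the animal as a block. At a difference of at least 2-fold the counts were 1492 genes for striatum (8.48%) and 1885 for cortex (10.7%). The median over all genes tested was 0.01 on the log2 scale of striatum over cortex. These shares are the background for every count of list members below.

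The 10 largest differences in each direction were taken from the called genes with a mean of at least 3 log2 CPM. Those with striatal excess included both markers of projection neurons and transcription factors of the ventral forebrain. Six3 (chr17:85613608-85629302, plus strand), a homeobox factor needed for Drd2-type neurons, measured 69.5, 77.6 and 89.5 CPM in Msh6-/- striatum, and the 8 cortical libraries held 2 counts in all, a ratio of 6106 with a 95% counting interval of 1766 to 52690. Its antisense neighbour Six3os1 measured 24.8, 25.6 and 28.4 CPM in striatum against 0 counts in cortex, and was therefore at least 1428-fold higher in striatum (against a floor of 3 counts over the 8 cortical libraries). The genes overlap on opposite strands, and whether the authors counted by strand is not given in the sources used here. Their reads may be shared. Isl1 (chr13:116298281-116309689, minus strand), a LIM-homeobox factor of Drd1-type and cholinergic neurons, measured 15.7, 17.3 and 20.4 CPM in striatum against a single count in cortex, a ratio of 2947 (515.6 to 113600).

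Drd2 (chr9:49340627-49408177, plus strand) measured 217, 252 and 301 CPM in Msh6-/- striatum and 0.208, 0.375 and 0.671 CPM in cortex. The tissues did not overlap, and the difference was 9.26 ± 0.08 on the log2 scale (SE), against 8.91 ± 0.08 in wild type. Adora2a (chr10:75316877-75334784, plus strand), whose product opposes D2 receptor signalling in the same neurons, measured 373, 477 and 516 CPM against 1.18, 1.83 and 2.51 CPM (7.93 ± 0.07). The bile acid transporter family gene Slc10a4, which is found in synaptic vesicles of cholinergic and monoaminergic neurons, measured 18.7, 21.5 and 23.5 CPM in striatum against 11 counts over the 8 cortical libraries, a ratio of 318.2 (175.7 to 631.3). Lrrc10b reached 295, 385 and 434 CPM in striatum (8.95 ± 0.10), and Syndig1l, a relative of an AMPA receptor-associated synaptic protein, 390, 503 and 589 CPM (8.65 ± 0.06). Serpina9 (58.6, 76.2 and 78.3 CPM in striatum, 8.43 ± 0.13) and Sh3rf2 (97.8, 110 and 134 CPM, 8.14 ± 0.10) completed the 10 genes. In each of the 10, the lowest striatal library exceeded the highest cortical one.

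The genes with the largest cortical excess were led by pyramidal neuron genes. Igfn1 (chr1:135953578-136006342, minus strand) measured 84.5, 98.1 and 112 CPM in Msh6-/- cortex, with 7 counts over the 8 striatal libraries, a ratio of 2086 with a counting interval of 1040 to 5329. Slc17a7 (chr7:45163949-45176142, plus strand), the vesicular glutamate transporter VGLUT1, measured 1231, 1326 and 1353 CPM in cortex and 2.01, 2.94 and 4.59 CPM in striatum (-8.72 ± 0.09). Slc30a3, which loads zinc into glutamatergic vesicles, measured 114, 127 and 131 CPM in cortex (-9.08 ± 0.08).

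The neuronal basic helix-loop-helix genes followed the same split. Neurod1 measured 14.6, 16.2 and 18.7 CPM in cortex against 3 counts over the 8 striatal libraries, a ratio of 814.8 (282.6 to 4012). Neurod2 (chr11:98325415-98329648, minus strand) measured 86.1, 90.9 and 100 CPM in cortex and 0.112, 0.262 and 0.525 CPM in striatum (-8.35 ± 0.10), and Neurod6 measured 48.6, 55.1 and 62.3 CPM in cortex (-8.23 ± 0.11). The dorsal telencephalic homeobox gene Emx1 (12 striatal counts, a ratio of 289.4 with a counting interval of 167.4 to 567.1), the Nogo receptor family gene Rtn4rl2 (14 counts, 390.5, from 223.4 to 686.7) and the netrin family gene Ntn5 (8 counts, 349.3, from 184.6 to 844.3) completed the genes described in this direction. Across the 19 described genes of both directions the adjusted p did not exceed 3.37e-20 (edgeR).

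**Figure D1:**
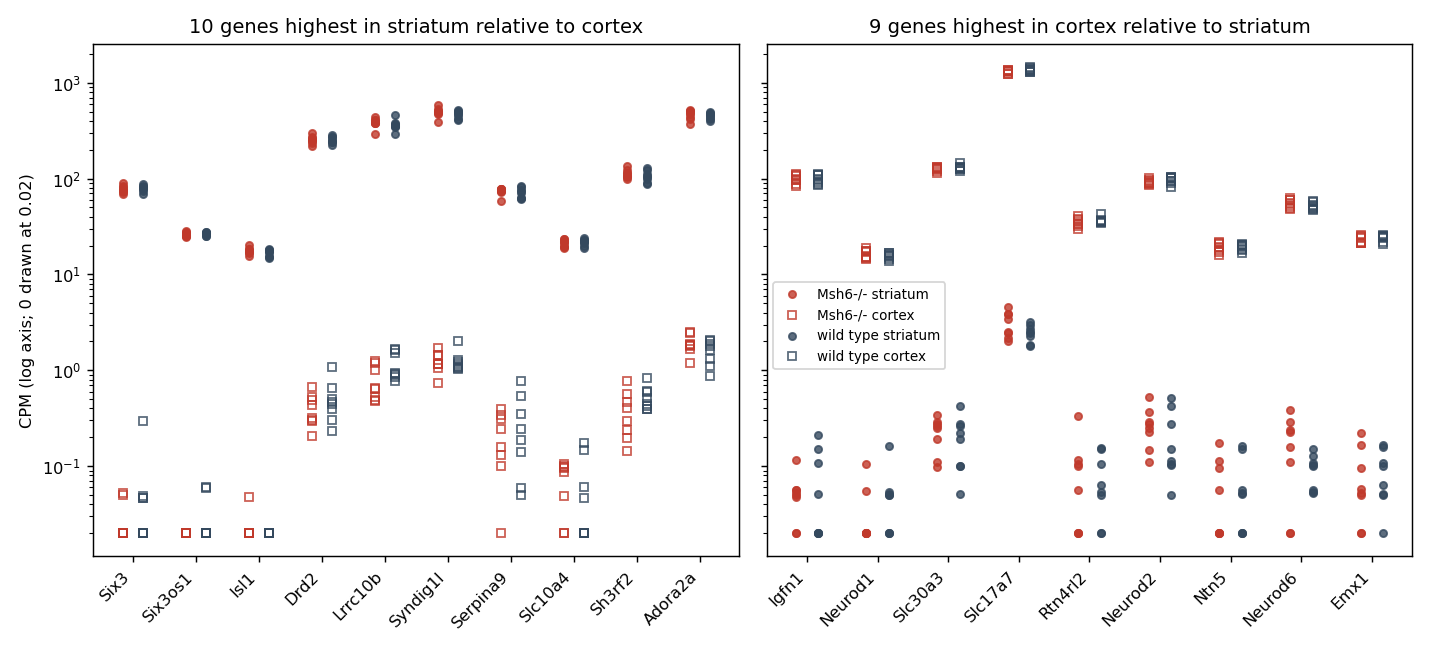
Level of the 19 genes in each of the 32 libraries of Msh6-/- (red) and wild-type (dark blue) mice, in CPM on a log axis with libraries at 0 drawn at 0.02; filled circles are striatum, open squares cortex, 8 libraries per group. For every gene the striatal and cortical points are separate, and the points of the 2 genotypes lie side by side within each tissue.

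In wild-type mice the leading genes of both directions were measured at these levels in the tissue where they were high. Six3 measured 69.3, 80.2 and 87.4 CPM in wild-type striatum, Drd2 224, 249 and 285 CPM, and Adora2a 396, 453 and 489 CPM. In wild-type cortex Slc17a7 measured 1292, 1357 and 1448 CPM. In each of these 4 genes the ranges of the 2 genotypes overlapped. The regional difference in Msh6-/- minus that in wild type lay between -0.48 (Igfn1) and 0.78 (Neurod6) for the 15 of the 19 genes with more than 3 counts in the low tissue in Msh6-/- mice, and none was called. Lrrc10b (0.64 ± 0.24, unadjusted p = 0.0149) and Slc17a7 (0.38 ± 0.16, unadjusted p = 0.0261) had the smallest p among them, with an adjusted p of 0.913 each (edgeR).

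The sequence before the start of 3 of these genes is shown because their levels separate the tissues, Drd2 towards striatum and Neurod2 and Slc17a7 towards cortex. Each run is the 250 bases before the RefSeq start in GRCm38.p6, written 5′ to 3′ on the gene's strand, with GC boxes (GGGCGG on either strand) and the NeuroD-type E-box (CAGATG on either strand) in capitals. The windows are chr9:49340153-49340402 (plus strand) for Drd2, chr11:98329646-98329895 (minus strand) for Neurod2 and chr7:45163671-45163920 (plus strand) for Slc17a7.
Drd2: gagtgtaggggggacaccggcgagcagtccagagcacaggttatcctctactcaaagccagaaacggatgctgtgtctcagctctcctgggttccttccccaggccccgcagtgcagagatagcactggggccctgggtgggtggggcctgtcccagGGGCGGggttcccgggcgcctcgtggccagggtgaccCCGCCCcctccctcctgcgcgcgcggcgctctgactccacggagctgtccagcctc
Neurod2: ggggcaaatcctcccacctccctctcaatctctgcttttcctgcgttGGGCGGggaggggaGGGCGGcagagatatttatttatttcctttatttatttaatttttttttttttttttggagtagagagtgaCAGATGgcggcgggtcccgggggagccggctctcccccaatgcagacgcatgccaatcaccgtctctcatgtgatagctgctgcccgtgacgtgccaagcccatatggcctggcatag
Slc17a7: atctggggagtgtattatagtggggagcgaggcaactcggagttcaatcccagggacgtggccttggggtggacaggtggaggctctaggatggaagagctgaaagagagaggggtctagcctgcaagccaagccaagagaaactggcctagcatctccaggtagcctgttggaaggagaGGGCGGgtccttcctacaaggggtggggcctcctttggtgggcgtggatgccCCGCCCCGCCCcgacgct
The Drd2 and Slc17a7 windows held GC boxes and no E-box of this type, and in Slc17a7 the last 2 GC boxes, on the opposite strand, overlap. The Neurod2 window held both motifs.

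All genes tested were then compared between genotypes. Across the 17596 genes, the log2 regional difference in Msh6-/- mice correlated with that in wild-type mice at Pearson's r = 0.987 and Spearman's rho = 0.966, and at r = 0.996 for the 10919 genes with a mean of at least 3 log2 CPM. This correlation is across genes, which are not independent replicates. In both genotypes 12128 genes were called in the same direction, 1035 were called in Msh6-/- mice alone and 1045 in wild type alone, which is a difference in passing a threshold and not a tested difference. At 2-fold, 3122 genes were shared, which is 92.4% of the 3377 Msh6-/- genes and 93.2% of the 3350 wild-type genes.

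Only Mfsd3 and Usp19 were called in opposite directions, and they are named after their values were seen. Mfsd3, a membrane transporter gene, differed by 0.26 in Msh6-/- and by -0.23 in wild-type mice on the log2 scale of striatum over cortex, and Usp19, a deubiquitinase gene, by 0.05 and -0.05. The tests of the difference between genotypes gave an unadjusted p of 0.00173 for Mfsd3 and 0.00302 for Usp19, and an adjusted p of 0.913 for each (edgeR).

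**Figure D2:**
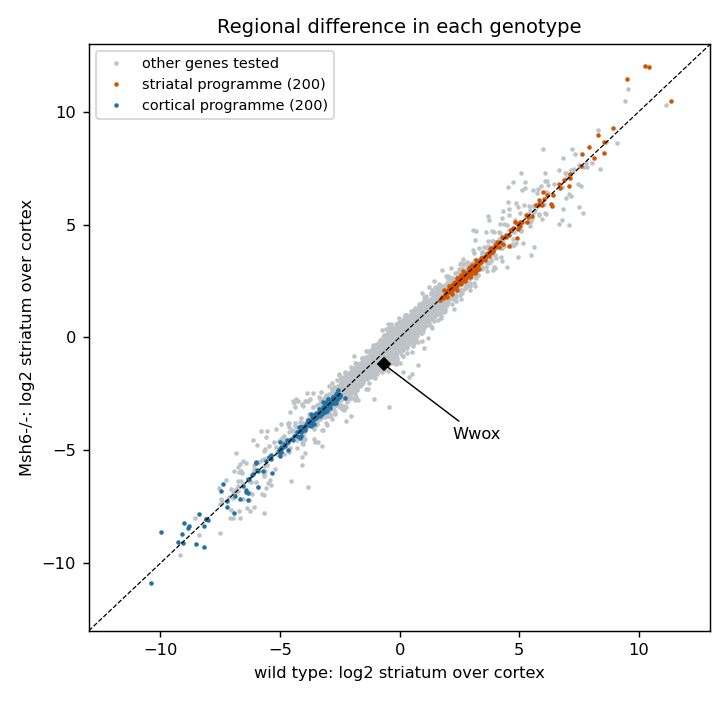
Log2 striatum over cortex for each of the 17596 genes tested, wild type on the horizontal and Msh6-/- on the vertical axis, with the dashed line marking equal values; orange and blue points are the 200 striatal and 200 cortical genes chosen in Msh6+/- mice and the black diamond is Wwox. The points follow the line (r = 0.987), and Wwox lies below it at -0.67 in wild type and -1.18 in Msh6-/-.

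The test of the regional difference itself between genotypes called 1 gene of 17596 (0.00568%), Wwox, and 919 genes had an unadjusted p under 0.05. DESeq2 with the same design called 1 gene, with 435 at an unadjusted p under 0.05. The median change of the regional difference over all genes was -0.0002 on the log2 scale, and 5% and 95% of genes lay at -0.27 and 0.28. The 95% confidence interval of the change lay within 1.5-fold in either direction for 79.0% of all genes and for 99.1% of the 10919 genes with a mean of at least 3 log2 CPM, and within 2-fold for 92.0% of all genes. Of the 3605 genes called with at least 2-fold between tissues in either genotype, it lay within 1.5-fold for only 56.0%. For the genes outside these shares a change of that size was not excluded at this depth. The same test of Q140 mice against the same wild-type mice, with equal group sizes, called 3127 of 17625 genes (17.7%), 1285 with a higher and 1842 with a lower value of striatum over cortex.

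The regional programme was then read out with genes chosen in other animals. The 200 genes with the largest excess in either tissue of Msh6+/- mice, among those with a mean of at least 3 log2 CPM, formed a striatal and a cortical programme. All 200 striatal genes were higher in striatum in Msh6-/- and in wild-type mice (adjusted p under 0.05 in edgeR), with a smallest difference of 1.65 in Msh6-/- mice, and all 200 cortical genes were higher in cortex in both, with a smallest difference of 2.33. None of these genes was called for a change of its regional difference between Msh6-/- and wild type, and 7 striatal and 12 cortical genes had an unadjusted p under 0.05. The 95% interval of the change lay within 1.5-fold for 177 of the striatal and 151 of the cortical genes. Of the programme genes, 49 striatal and 33 cortical ones also belong to the gene lists described below.

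Each mouse's score was the mean log2 striatum over cortex of the 200 genes. The striatal score was 3.55, 3.62 and 3.70 (lowest, median and highest; 3.62 ± 0.05, SD, n = 8) in Msh6-/- mice and 3.53, 3.62 and 3.70 (3.61 ± 0.06, SD, n = 8) in wild-type mice. The cortical score was -4.25, -4.15 and -3.98 in Msh6-/- mice (-4.13 ± 0.09, SD, n = 8) and -4.24, -4.15 and -3.94 in wild-type mice (-4.14 ± 0.09, SD, n = 8). The ranges of the 2 genotypes overlapped nearly fully for both scores, and the means differed by less than 1 SD. Males and females were mixed along each range.

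**Figure D3:**
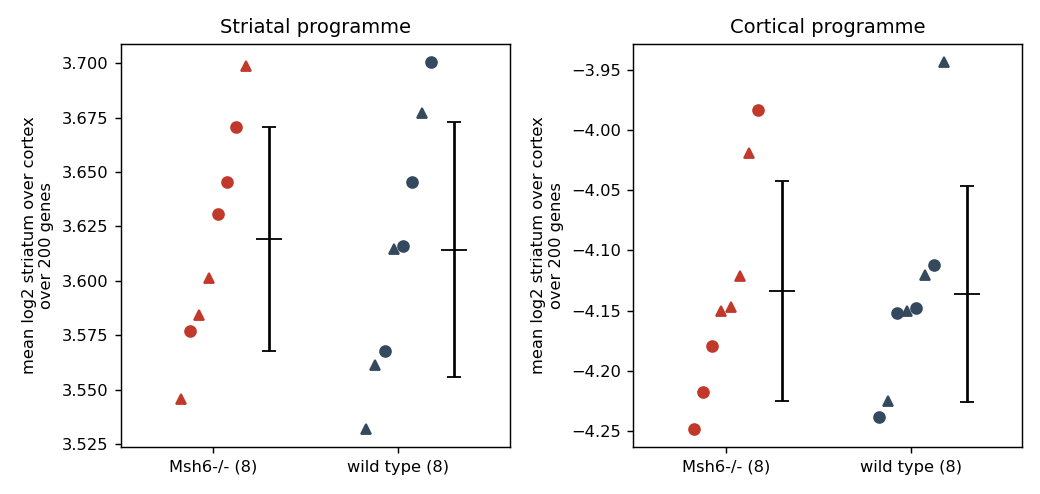
Striatal (left) and cortical (right) programme score of each mouse, the mean log2 striatum over cortex of 200 genes chosen in Msh6+/- mice; red points are Msh6-/- and dark blue points wild type, circles are females and triangles males, spread sideways in order of value, with the mean and SD of 8 mice beside them. The 2 genotypes cover the same range, 3.55 to 3.70 against 3.53 to 3.70 for the striatal score.

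The windows around the start of these genes were compared by sequence. RefSeq promoters (GRCm38.p6, 250 bases before to 50 after the start) matched 148 striatal genes with 209 windows and 150 cortical genes with 210 windows, and 11652 of the genes tested with 14923 windows. The E-box CAGATG was in 13.4% of striatal, 17.6% of cortical and 12.2% of all tested windows, and in 17.2% of all promoters in the table. The cAMP response element TGACGTCA was in 0.957% of striatal, 0.476% of cortical and 2.88% of all tested windows (1.79% of all promoters), and the forkhead motif GTAAACA in 2.39%, 1.90% and 2.54% (3.65%). The GC box GGGCGG was in 50.7%, 53.3% and 59.6% (35.7%), and TATAAA in 11%, 9.05% and 7.47% (13.6%). Both strands were searched, and a match is a run of letters, not a measured binding site.

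The regional difference in Msh6-/- mice was then described by gene lists of known roles. The lists and their members were chosen with earlier results of these data known, and several are defined by a tissue. Their counts are a description and not a test. Among 17 transcription factors of striatal projection neurons, 14 were higher in striatum and 3 in cortex, with a median of 3.07 on the log2 scale of striatum over cortex (wild type 2.93; all genes tested 0.01). Foxp2 measured 80.7, 91.3 and 100 CPM in striatum against 2.10, 3.58 and 6.38 CPM in cortex (4.56 ± 0.11), and the retinoid receptor gene Rxrg 109, 150 and 204 CPM against 0.822, 0.996 and 1.15 CPM (7.23 ± 0.07). Bcl11b, which encodes CTIP2 and is also found in deep cortical layers, measured 456, 510 and 562 CPM against 37.8, 46.3 and 59.9 CPM (3.46 ± 0.06). The 3 members higher in cortex were Sp8 (-1.85 ± 0.35), Dlx1 (-1.93 ± 0.23) and Dlx2 (-0.66 ± 0.20), which also mark cortical interneurons. In striatum Dlx1 ranged from 2.65 to 15.1 CPM around a median of 4.99 CPM.

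The peptide and receptor genes of both projection neuron classes were striatal. Of 8 genes of the Drd1 class, 7 were higher in striatum, with a median of 3.66 (wild type 3.57), and Eya1 was the exception at -0.09 ± 0.08. Drd1 measured 347, 370 and 419 CPM in striatum against 4.21, 4.76 and 4.97 CPM in cortex (6.31 ± 0.05), and Tac1, the substance P gene, 170, 194 and 242 CPM against 3.34, 4.31 and 6.37 CPM (5.43 ± 0.07). Of 7 tested genes of the Drd2 class, 6 were higher in striatum (median 6.78, wild type 6.67) and Ptprm did not pass at 0.02 ± 0.04. Penk, the enkephalin gene, measured 1622, 1761 and 1974 CPM against 23.5, 31.0 and 40.7 CPM (5.85 ± 0.08), and the orphan receptor gene Gpr6 87.2, 101 and 116 CPM against 0.431, 0.886 and 1.26 CPM (6.78 ± 0.09). Gpr52 of the Drd2 list did not pass the filter on low counts. None of these genes was called for a change between genotypes; for Drd1 the change was 0.13 ± 0.08, with an interval from -0.02 to 0.29, and for Penk -0.13 ± 0.10, from -0.33 to 0.07.

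The cascade behind dopamine receptors was higher in striatum in all 15 of its genes (median 3.71, wild type 3.67). Ppp1r1b, which encodes DARPP-32, the phosphatase inhibitor switched on by D1 receptors, measured 2149, 2600 and 2685 CPM in striatum against 64.8, 76.9 and 89.2 CPM in cortex (5.04 ± 0.05). Rgs9, which speeds the shut-off of D2 receptor G proteins, measured 802, 952 and 1011 CPM against 6.47, 7.07 and 8.77 CPM (6.96 ± 0.06). The phosphodiesterase gene Pde10a measured 2334, 2663 and 3367 CPM against 65.8, 75.1 and 109 CPM (5.11 ± 0.11). The G protein gene Gng7 (4.53 ± 0.04) was also striatal, and the changes of the 15 regional differences against wild type lay between -0.04 and 0.12. All 10 ion channel and calcium release genes of the striatum were also higher there (median 1.44, wild type 1.43), led by the sodium channel subunit gene Scn4b at 2072, 2564 and 2650 CPM against 174, 183 and 207 CPM (3.75 ± 0.04).

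Opioid and tachykinin genes lay on both sides. Among 11 opioid and tachykinin genes, 8 were higher in striatum and 3 in cortex (median 2.2, wild type 2.08). The receptor genes Oprk1 (4.15 ± 0.11) and Tacr1 (5.37 ± 0.11) were striatal, while the peptide genes Pnoc (-4.08 ± 0.19) and Tac2 (-4.69 ± 0.21) and the nociceptin receptor gene Oprl1 (-1.14) were cortical. Of 9 genes of cholinergic interneurons, 8 were higher in striatum (median 5.85, wild type 5.84). Chat, which makes acetylcholine, measured 29.6, 38.7 and 42.6 CPM against 0.401, 0.642 and 0.833 CPM (5.85 ± 0.11), and the choline transporter gene Slc5a7 52.0, 59.9 and 62.4 CPM against 0.565, 0.775 and 1.09 CPM (6.15 ± 0.07). The homeobox gene Lhx8 had 0 counts in the 8 cortical libraries and was at least 493.8-fold higher in striatum, which leaves the list's median where it is. Zic4 did not pass at -0.26 ± 0.15.

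GABAergic interneuron genes were mostly cortical, with 10 of 14 tested higher in cortex and 4 in striatum (median -1.72, wild type -1.71). Vip measured 45, 51.5 and 54.7 CPM in cortex and 0.112, 0.452 and 0.688 CPM in striatum (-6.79 ± 0.10). Pvalb, the parvalbumin gene, measured 53.6, 60.4 and 66.1 CPM in cortex and 4.28, 6.64 and 15.5 CPM in striatum (-2.95 ± 0.18). Nos1 (1.75 ± 0.04) and Reln (1.46 ± 0.05) were higher in striatum, and Sst (0.13 ± 0.05) and Lhx6 (0.14) by little; this count of 4 fell to 2 when animal 20-1 or 32-1 was left out and with FPKM values. Chrna2 did not pass the filter. Of 6 genes of GABA synthesis, loading and uptake, 4 were higher in striatum, among them Gad2 (1.62 ± 0.04) and the vesicular transporter gene Slc32a1 (1.70 ± 0.03), and the uptake gene Slc6a11 (-0.91) was among the 2 higher in cortex.

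All 18 genes of cortical glutamatergic neurons were higher in the cortex of Msh6-/- mice, with a median of -6.99 (wild type -6.97). Tbr1 measured 159, 166 and 188 CPM in cortex and 0.446, 0.641 and 0.814 CPM in striatum (-8.06 ± 0.07), and Nrn1, a neuritin gene, 183, 202 and 213 CPM against 0.497, 0.770 and 0.924 CPM (-8.06 ± 0.06). The smallest difference was that of Itpka at -0.14 ± 0.04. Layer genes varied more. Of 14 genes of layers 2 to 4, 11 were cortical, led by Cux2 (-4.14 ± 0.07), and Wfs1 (1.18 ± 0.08) was striatal. Of 11 genes of layer 5, 9 were cortical, led by Qrfpr (7 striatal counts, a ratio of 97.91 with a counting interval of 45.39 to 234.7), and Fam84b (1.42) was striatal. Of 13 genes of layer 6 and the subplate, 7 were striatal, led by Syt6 (4.74 ± 0.10) and Foxp2, and 6 cortical, led by Cplx3 (-4.34 ± 0.14). The changes against wild type had medians of 0.04, -0.07 and 0.06 for these 3 lists, and no member was called.

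**Figure D4:**
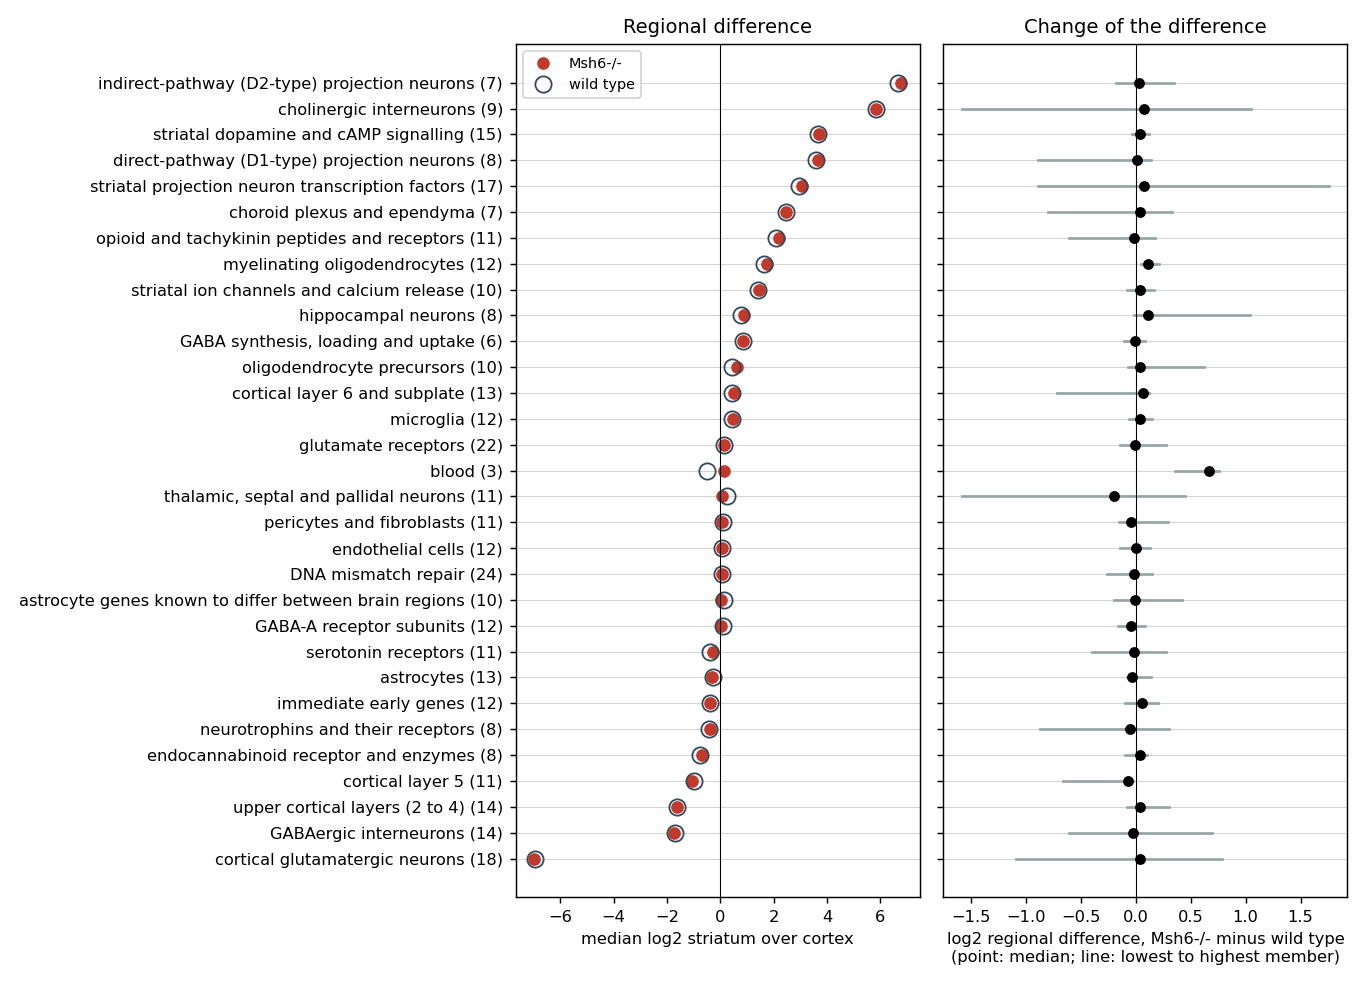
Left, median log2 striatum over cortex of each gene list in Msh6-/- (red) and wild-type (open) mice, with the number of genes tested in brackets; right, median (point) and lowest to highest member (line) of the change of that difference, Msh6-/- minus wild type. The medians run from 6.78 for Drd2-type projection neurons to -6.99 for cortical glutamatergic neurons, and the change of the blood list centres at 0.66. The widest line, that of the striatal transcription factors from -0.89 to 1.76, ends at Isl1 and Six3, which had 1 and 2 counts in Msh6-/- cortex.

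Receptor families held members on both sides, as did all genes tested, of which 37.5% were higher in striatum and 37.3% in cortex. Whether the counts of these families differ from those shares was not tested. Among 22 glutamate receptor genes 11 were striatal and 9 cortical (median 0.13, wild type 0.15). The group II metabotropic receptor gene Grm2 measured 74.8, 81.9 and 88.5 CPM in cortex and 0.823, 1.16 and 1.69 CPM in striatum (-6.07 ± 0.07), while Grm4 (1.93 ± 0.04) and the kainate receptor gene Grik2 (1.84 ± 0.04) were striatal and the obligatory NMDA receptor subunit gene Grin1 measured 767 CPM in both tissues (0.00 ± 0.03). Of 12 GABA-A receptor subunit genes tested, 6 were higher in each tissue, with Gabra3 (-2.55 ± 0.04) in cortex and Gabrd (0.86 ± 0.03) in striatum. Of 11 serotonin receptor genes 5 were striatal, led by Htr1d (6.09 ± 0.13) and Htr1b (4.03 ± 0.06), and 5 cortical, led by Htr1a (-2.97 ± 0.13).

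In a pair of signalling systems the receptor genes and the ligand or enzyme genes lay on opposite sides. Bdnf, a neurotrophin made by cortical neurons and carried to the striatum along their axons, measured 21.3, 26.0 and 40.0 CPM in cortex and 0.110, 0.211 and 0.407 CPM in striatum (-6.85 ± 0.13). Of the 8 neurotrophin genes tested 5 were cortical and 3 striatal, and Ntf3 did not pass the filter. The cannabinoid receptor gene Cnr1 measured 357, 531 and 604 CPM in striatum against 141, 150 and 160 CPM in cortex (1.70 ± 0.07), whereas the other 7 genes of the endocannabinoid list, all enzymes, were cortical, led by the anandamide hydrolase gene Faah (-3.20 ± 0.04). Gabre and Htr5b of the receptor lists did not pass the filter.

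Immediate early genes, which neurons switch on within minutes of activity, were mostly cortical: 7 of 12 were higher in cortex and Egr2 (0.40) and Egr4 (0.51) in striatum (median -0.38, wild type -0.40). Fos measured 18.1, 55.8 and 94.4 CPM in cortex and 3.25, 11.7 and 38.2 CPM in striatum (-2.01 ± 0.18), so the tissues overlapped between animals. Ier2 measured 5.80, 13.9 and 22.1 CPM in cortex and 1.48, 1.85 and 3.23 CPM in striatum (-2.72 ± 0.12) without overlap.

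Some lists of glial, vascular and neighbouring-tissue markers also differed between the tissues, and others were split or mostly not called. All 12 genes of myelinating oligodendrocytes were at least 2-fold higher in Msh6-/- striatum, with a median of 1.75 (wild type 1.62), and Mobp measured 942, 1128 and 1274 CPM against 242, 267 and 296 CPM in cortex (2.08 ± 0.04). Their summed level was 6476, 7084 and 8229 CPM in Msh6-/- striatum, 5576, 6228 and 7344 CPM in wild-type striatum, 1892, 2017 and 2378 CPM in Msh6-/- cortex and 1803, 1958 and 2269 CPM in wild-type cortex. The striatal ranges of the 2 genotypes overlapped. The change of the regional difference was between 0.05 and 0.21 for the 12 genes, and none was called. Of the 12, 4 had an unadjusted p under 0.05 (edgeR), against 919 of the 17596 genes tested. A change of the list as a set was not tested. All 10 oligodendrocyte precursor genes were higher in striatum, led by Vcan (1.11) and Sox10 (1.19 ± 0.04), and 11 of 12 microglial genes were, by at most 0.61.

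Astrocyte genes were higher in cortex in 9 of 13 cases, led by the connexin gene Gjb6 (-1.44 ± 0.06) and Gfap (-1.03 ± 0.12). In striatum 2 were higher, among them Slc4a4, with a mean difference of 0.96 and the striatum above the cortex in all 8 Msh6-/- animals. Among 10 astrocyte genes known to differ between regions, 4 were striatal, led by Unc13c (3.37 ± 0.05) and Crym (2.83 ± 0.09), and 5 cortical. Of 12 endothelial genes 5 were higher in striatum (Slco1a4, Ly6c1, Itm2a, Esam and Slc2a1), by at most 0.28, a count that fell to 3 without animal 20-1 and without the block. Among 11 pericyte and fibroblast genes 4 were higher in striatum, led by Tagln (1.03), and 4 in cortex, all of them fibroblast genes led by Col1a2 (-1.53 ± 0.08).

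Markers of tissue next to the striatum varied between animals. The 7 choroid plexus and ependymal genes tested were all higher in striatum, and the summed level of the list was 23.4 to 54.4 CPM in striatum and 5.67 to 8.97 CPM in cortex. Folr1, Aqp1, Kcne2 and Otx2 of that list did not pass the filter. The plexus gene Ttr measured 0.106, 2.40 and 9.88 CPM in striatum and 0.104, 0.374 and 1.41 CPM in cortex, which overlapped. Of 8 hippocampal genes tested 5 were higher in striatum and 2 in cortex (Tdo2 and Iyd did not pass the filter), and of 11 thalamic, septal and pallidal genes 4 were higher in striatum and 5 in cortex. Slc17a6, the glutamate transporter gene of thalamic neurons, measured 30.0, 35.2 and 39.1 CPM in cortex and 0, 0.135 and 0.348 CPM in striatum. The 5 blood genes summed to 0, 4.69 and 52.4 CPM in Msh6-/- striatum and 0.174, 4.19 and 52.0 CPM in Msh6-/- cortex, and to at most 11.3 and 11.7 CPM in the wild-type tissues. Hba-a2 and Alas2 did not pass the filter, and none of the 3 others passed the test between tissues. What share these cells had in the regional difference of any other gene was not tested.

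The mismatch repair genes were examined because the mice lack one of them. Of 24 genes of this pathway, 9 were higher in striatum and 8 in cortex in Msh6-/- mice (median 0.04, wild type 0.07), shares close to the background of 37.5% and 37.3%, and only Lig1 reached 2-fold. Msh3, whose product acts on longer loops, measured 23.8, 24.7 and 26.1 CPM in striatum and 18.5, 19.8 and 21.5 CPM in cortex (0.31 ± 0.05). The lowest striatal library exceeded the highest cortical one.

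Mlh3 (0.50 ± 0.04) and Pms1 (0.29 ± 0.10), which encode proteins acting after mismatch recognition, were striatal. Mlh3 measured 34.9, 37.9 and 39.0 CPM in striatum and 23.5, 26.7 and 28.4 CPM in cortex. Of the nucleases, Fan1, a modifier of repeat expansion, was striatal (0.30 ± 0.05) and Exo1 cortical (-0.66 ± 0.29; 0.423 and 0.616 CPM at the median). The sealing enzyme gene Lig1 measured 10.4, 11.7 and 16.2 CPM in cortex and 4.59, 6.41 and 7.59 CPM in striatum (-1.01 ± 0.08).

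In the single-strand binding, clamp, clamp loader and polymerase groups, Rpa2 (0.71 ± 0.07), Pold2 (0.40), Rfc5 (0.36) and Pold3 (0.15 ± 0.04) were striatal, and Rfc2 (-0.17), Pcna (-0.12 ± 0.04) and Rpa1 (-0.09) cortical. Rfc1, Rfc3, Rfc4, Rpa3, Pold1, Pold4 and the mitochondrial binding protein gene Ssbp1 did not pass. The count of 8 cortical genes fell to 5 under DESeq2, with no filter on low counts and without animal 33-3. Against wild type, 3 of the 24 had an unadjusted p under 0.05, where 919 of the 17596 genes tested did. The smallest was that of Pold3 (-0.21 ± 0.05, unadjusted p = 0.000839, edgeR), and none of the 24 was called.

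Wwox was the gene called for a change of its regional difference between genotypes. It encodes a WW-domain oxidoreductase, is a large gene that spans a common fragile site, and lies at chr8:114439655-115352708 on the plus strand, on another chromosome than Msh6. In cortex it measured 22.9, 27.7 and 33.2 CPM in Msh6-/- mice and 16.5, 18.6 and 20.6 CPM in wild-type mice, which did not overlap. In striatum it measured 11.1, 12.3 and 13.3 CPM in Msh6-/- and 9.54, 11.6 and 13.1 CPM in wild-type mice, which overlapped.

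The log2 difference of striatum over cortex was -1.18 ± 0.06 in Msh6-/- and -0.67 ± 0.06 in wild-type mice, a change of -0.52 ± 0.08 with a 95% interval from -0.69 to -0.34 (adjusted p = 0.0407, edgeR). By animal, the differences ran from -1.53 to -0.82 in Msh6-/- and from -0.96 to -0.48 in wild-type mice. They overlapped only through the Msh6-/- animal 14-3 at -0.82 and the wild-type animal 16-2 at -0.96. Within cortex, Wwox was higher in Msh6-/- than in wild-type mice by 0.59 ± 0.06 (adjusted p = 1.56e-07, edgeR), and within striatum by 0.07 ± 0.07 (adjusted p = 0.941, edgeR).

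The comparison was repeated in the 32 libraries of mice with the Q140 allele, which share no library with the ones above. There the test of the regional difference called 1 gene of 17661 (0.00566%), again Wwox, with 922 genes at an unadjusted p under 0.05. Wwox measured 26.3, 27.7 and 29.5 CPM in the cortex of Q140 Msh6-/- mice and 17.2, 19.2 and 20.7 CPM in that of Q140 mice, without overlap, and 11.2, 12.4 and 14.0 CPM against 11.8, 12.1 and 13.3 CPM in striatum. The change was -0.53 ± 0.07 (adjusted p = 0.000673, edgeR), with 0.55 ± 0.04 in cortex and 0.02 ± 0.05 in striatum. In Msh6+/- mice, in a fit of all 96 libraries, Wwox measured 19.0, 20.9 and 22.2 CPM in cortex, and the change of its regional difference from wild type was -0.09 ± 0.07, or -0.04 ± 0.08 with Q140, neither of them called.

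**Figure D5:**
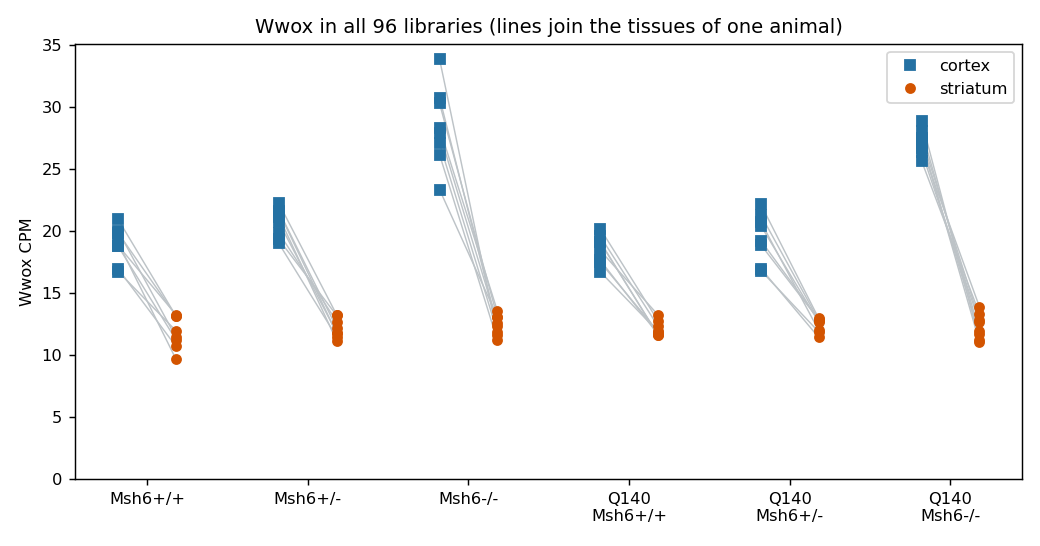
Wwox level in CPM in each of the 96 libraries by Msh6 genotype, without (left 3 groups) and with (right 3 groups) Q140; blue squares are cortex, orange circles striatum, and a grey line joins the tissues of one animal. CPM here are scaled over all 96 libraries. The cortical points of both Msh6-/- groups, 23.3 to 33.9 and 25.7 to 28.9 CPM, lie above those of all other groups, whose highest is 22.2 CPM, and the striatal points of the 6 groups overlap.

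The Wwox call without Q140 was close to its threshold. It was lost without the animal block (-0.52, adjusted p = 0.0577, edgeR), with FPKM values, with the prefix of the animal number by tissue as a covariate (adjusted p = 0.458) and on leaving out any of the Msh6-/- animals 16-3, 20-1, 26-2, 29-2, 32-1 and 33-3 (adjusted p from 0.0833 to 0.151) or of the wild-type animals 13-1, 13-2, 15-2, 16-1, 18-1 and 21-1 (0.0639 to 0.153). Its size was between -0.57 and -0.46 over the fits that left out one animal, and -0.37 with log2(FPKM + 1). The animal numbers ran from 13-1 to 21-1 in wild-type and from 14-3 to 33-3 in Msh6-/- mice. The prefix and the genotype were therefore partly confounded, and the fit with that covariate cannot fully separate them. Of the genes within 1 Mb of Wwox, a set looked at after its values were seen, 5 were tested. None of them was called between genotypes in cortex, a test for which the share of all genes called is not given here. Their changes of the regional difference lay between -0.06 and 0.16.

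The 4 genes with the next smallest p were not called in this fit. Some were called in other fits: Ttc7 in the fit of all 96 libraries (adjusted p = 0.00819, edgeR), without the wild-type animal 20-2 (adjusted p = 0.0443, edgeR) and with no filter on low counts (adjusted p = 0.0025, edgeR), and C1ql1 (0.012) and Tmem151a (0.041) with no filter. Ttc7, a scaffold gene of a lipid kinase complex, lies at chr17:87282886-87381769 and 593 kb from Msh6. It measured 16.7, 19.2 and 21.9 CPM in Msh6-/- striatum and 8.70, 10.2 and 12.2 CPM in Msh6-/- cortex, against 15.0, 17.8 and 21.4 CPM and 9.84, 12.4 and 15.8 CPM in wild type. Its regional difference was larger in Msh6-/- mice by 0.41 ± 0.08 (adjusted p = 0.206, edgeR), and by 0.33 ± 0.08 on the Q140 background (adjusted p = 0.443, edgeR). The activin receptor gene Acvr2a (-0.21 ± 0.05), the synaptic complement-related gene C1ql1 (0.62 ± 0.14) and Tmem151a (0.17 ± 0.04) each had an adjusted p of 0.804 (edgeR) in the fit without Q140. On the Q140 background the change was 0.02 for each of these 3 genes.

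When both backgrounds were averaged in the fit of all 96 libraries, a comparison added after the values were seen, 3 genes were called, among them Wwox (-0.52 ± 0.05, adjusted p = 1.21e-09, edgeR) and Ttc7 (0.37 ± 0.05, adjusted p = 2.58e-05, edgeR). Of the 14 other genes tested within 1 Mb of Ttc7, also looked at after the values were seen, 3 were called between genotypes in cortex. They were the deleted gene Msh6 itself, Rhoq (0.21, adjusted p = 0.0369, edgeR) and Prkce (-0.21, adjusted p = 0.00129, edgeR). The share of all genes called in that cortical test is not given here, so this count has no background. The changes of the regional difference of the 14 genes lay between -0.34 and 0.39. Ttc7 is on the chromosome of Msh6, and the Msh6 genotype and any other difference near it that came with the allele cannot be told apart.

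Sex did not divide the regional difference detectably. Within Msh6-/- mice, the difference of striatum over cortex in the 4 males minus that in the 4 females was called for 0 of 16859 genes (0%), with 648 genes at an unadjusted p under 0.05 and a lowest adjusted p of 0.482 (edgeR).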

How the data were processed

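RNA of both tissues was extracted with a Qiagen RNeasy kit and sequenced from Illumina TruSeq stranded libraries, per the labels' protocols. The authors deposited read counts per gene and FPKM for 48795 genes, and the submitters' processing notes name STAR 2.7.5c, SAMtools 1.10, HTSeq 0.12.3 and GRCm38, without the role of each tool. Whether counting used strand is not given in the sources used here. Deposited FPKM values served only in alternatives, as log2(FPKM + 0.1) or log2(FPKM + 1).

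Counts of the 32 libraries of Msh6-/- and wild-type mice were filtered with filterByExpr (minimum count 10, total 15), scaled by TMM and fitted with edgeR 4.0.16 (quasi-likelihood, Benjamini-Hochberg adjustment over 17596 genes, R 4.3.3), with each of 16 animals as a block and a tissue term per genotype. The interaction is the difference of these terms. Pairing comes from the animal numbers in the titles: residuals of the tissues of one Msh6-/- mouse correlated at 0.094 to 0.294 (median 0.187), against -0.027 between animals. No batch is labelled, and nothing in the labels says that libraries were technical repeats.

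Genes were named by rule: Msh6, the 10 largest differences each way, the 5 smallest interaction p, all mismatch repair genes and up to 5 members per list; predicted genes were only counted, and a few genes that the rule names are not reported here. The members and the 31 lists were chosen with earlier results of these data known. Counting intervals and floors cover counting error only. The scripts were tested on simulated data.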

Additional observations from a re-analysis of the deposited data

Results flagged for a closer look

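Wwox was singled out because the regional difference itself differed between genotypes by a test, with -0.516 between Msh6-/- and wild-type mice and -0.532 between Q140 Msh6-/- and Q140 mice on the log2 scale of striatum over cortex. Beside it, 14 of 116 groups of 8 values held a highest or lowest value farther from the rest than Dixon's 95% limit allows. Chance gives about 1 in 20 only for independent, normally distributed values. Some of these groups held few counts, and the genes share libraries, so whether 14 exceeds chance was not tested.

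For the deleted gene, the highest Msh6-/- striatum library had 10.74 CPM of Msh6 (animal 24-3) and the lowest wild-type striatum library 14.24 CPM (16-2). The striatum library of animal 24-3 was also the lowest of its group for Lrrc10b (294.5 CPM) and Serpina9 (58.56 CPM). It had the group's lowest summed level of Drd2-type markers (2398 CPM) and highest of choroid plexus and ependymal genes (54.44 CPM). Neither of these sums passed the limit. Values that stood apart in other Msh6-/- striatum libraries were the highest of Rtn4rl2 (0.3343 CPM, animal 14-3) and 2 summed levels. These were cortical glutamatergic genes (648 CPM, animal 16-3) and thalamic, septal and pallidal genes (67.74 CPM, animal 32-1). In Msh6-/- cortex the single count of Isl1 gave 0.04793 CPM in one library, and counts in a single library, with all others at 0, pass the limit by construction.

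Among wild-type mice, the highest striatum library stood apart for C1ql1 (5.253 CPM, animal 13-1) and for Neurod1 (0.1637 CPM, animal 15-2). In wild-type cortex the highest library stood apart for Rtn4rl2 (43.1 CPM, animal 15-2). Animal 16-1 held the highest cortical values of both Six3 (0.2967 CPM) and Syndig1l (2.027 CPM), which also stood apart. One wild-type mouse had a cortical programme score of -3.944, closer to 0 than the others.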

How the results depend on the processing

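With no replicate block, so without the pairing by animal, 6395 and 6401 genes were higher in striatum and cortex of Msh6-/- mice, 1495 and 1888 of them by at least 2-fold. The interaction then called 0 genes, with Wwox at -0.5215 (adjusted p = 0.0577, edgeR), and the tissue call of Msh6 in Msh6-/- mice was lost as well (adjusted p = 0.0682, edgeR). Wwox with Q140 kept its call. The tissue counts stayed within 1.5 times of the main ones under all other alternatives run except log2(FPKM + 1), with 684 and 909 genes past 2-fold in striatum and cortex. Leaving out one Msh6-/- animal gave 6415 to 6486 and 6449 to 6508 genes, and 1497 to 1531 and 1885 to 1928 past 2-fold.

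The interaction count of 1 became 28 with no filter on low counts, 2 in the fit of all 96 libraries, 0 with log2(FPKM + 0.1), 0 with log2(FPKM + 1), and, in fits added after the data were seen, 3 with both Q140 backgrounds averaged and 0 with the prefix of the animal number by tissue as a covariate. Wwox was -0.4929 (limma adjusted p = 0.667), -0.3666 (limma adjusted p = 0.199) and -0.5081 (edgeR adjusted p = 0.458) in the 3 of these that did not call it. What the prefix stands for is not stated in the labels, and it partly followed the Msh6 genotype. Leaving out one Msh6-/- animal gave -0.5697 to -0.4631 (adjusted p 0.003 to 0.151, edgeR) and 0 to 1 calls, and leaving out one wild-type animal, also added later, -0.5534 to -0.4898 (0.0147 to 0.153) and 0 to 2 calls. With Q140 the count became 77 with no filter, 0 with log2(FPKM + 0.1), where Wwox was -0.5069 (limma adjusted p = 0.0768), and 2 with log2(FPKM + 1). Where the cause of a lost or added call is not given by the construction of the alternative, the cause was not tested. No direction reversed.

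Of 1054 list counts, each under one alternative, 21 moved by over 1.5 times. Programme scores stayed within 1 SD with 100 genes each way and with a minimum of 0 log2 CPM. Depth limits the comparison for weakly expressed genes, whose intervals were widest.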
